A study of Bos taurus with 12 samples.

Results

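The sites described here are the autosomal cytosines at which every one of 6 fertile cows had a methylation level of exactly 100%, that is, no unmethylated call. In a deposited table of 216990 cytosines from the blood DNA of 12 dairy cows, 1131 sites met this rule, out of 213833 on the 29 autosomes (0.529%). With any 1 fertile cow left out of the rule, 1790 to 1919 sites met it. The subfertile group held 6 cows that were culled within the year after sampling because of reproductive complications not recognised when blood was drawn. The fertile group held 6 cows that stayed in the herd without fertility problems. All 12 cows were 3 to 8 years old and were kept on 1 farm under the same conditions, and no other treatment or genotype is given for either group. Cow numbers from 1 to 6 only name the cows within a group. The kind of complication is not given either, so the subfertile group is defined by its culling alone.

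In mammals, cytosines followed by a guanine carry methyl groups over most of the genome, and the maintenance methyltransferase DNMT1 copies them to the new strand after replication. Full methylation is therefore the usual state of introns and of the DNA between genes, whereas active promoters and enhancers tend to be unmethylated. The enzymatic conversion used here reads methylcytosine and hydroxymethylcytosine alike. A level in whole blood averages over all nucleated blood cells and over both parental chromosomes, so a change in cell mixture and a change within cells cannot be told apart. Whether the cows differ in DNA sequence at these sites was not tested, so levels are given as deposited.

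The choice of sites fixes the group difference. The authors deposited only sites that differed by over 25 percentage points between the groups, so a site at 100% in all fertile cows had to be lower in subfertile cows. The levels that follow are therefore descriptions, with no test between the groups. The labels put the F columns of the table in the subfertile group and the R columns in the fertile group, and they were followed. What F and R stand for is not stated, and with F and R exchanged all directions would be opposite. Read depth per value is unknown, so 100% means that no unmethylated read was counted among however many were sequenced.

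Values of the opposite DNA strand, which the rule did not use, were deposited for some of the sites. A CpG has a cytosine on each strand, and the opposite cytosine was also deposited for 524 of the 1131 sites (46.3%). For 90 of these, the opposite strand was itself at 100% in every fertile cow. At the other 434 opposite cytosines, fertile cows averaged 97.1 ± 0.244% (SD over 6 cows). In single fertile cows this mean lay between 96.7% and 97.3%. Here 180 had 5 fertile cows at 100%, 143 had 4, and 111 had fewer, and the lowest single value was 66.7%. All fertile values were at 90% or more at 270 of them (62.2%). These opposite cytosines are in the table because they passed the authors' limit on the group difference in these same cows, which favours high fertile levels. They are therefore no independent check of full methylation, and the other sites have no opposite cytosine in the table.

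The opposite strand also carried the lower subfertile levels. At these 434 CpGs, subfertile cow 1 averaged 60.4% at the chosen cytosine and 58.6% at the opposite one, and subfertile cow 6 averaged 61.1% at both. Subfertile cow 5 had 70.4% and 69.2%. The median absolute difference between strands within a cow was 6.67 percentage points. The deposited difference had the same direction on both strands in all 434 cases. The authors' selection applies to this direction too, so it is not independent evidence.

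Across the 1131 sites, the mean level in subfertile cows was 68.6 ± 3.42% (SD over 6 cows). It was 64.0, 68.7, 70.7, 68.5, 73.6 and 65.9% in subfertile cows 1 to 6, against 100% in each fertile cow by the rule. All 6 subfertile cows were thus lower on average, and cows 1 and 6 were the lowest. By site, the mean over subfertile cows ran from 38.6% upwards with a median of 69.8%. It was under 50% at 31 sites and at least 60% at 989. In the authors' deposited table the differences at these sites ran from -64.6 to -25.2 percentage points, with a median of -30.4.

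The means hide a spread in which most subfertile cows were either fully methylated or far below it. Of all 6639 subfertile values, 33.7% were exactly 100% and 17.3% lay from 75 to under 100%. Within that last range most values lay from 90 to under 95%, a bin that held 10.3% of all values. Another mode lay near the middle of the scale, with 22.6% of the values from 40 to under 60%. Values at exactly 0 made up 5.65%, whereas only 2.97% lay above 0 and under 25%. The typical range between the highest and the lowest subfertile cow at a site was 73.3 percentage points (median), and the median SD was 32.6 points. The values therefore gathered at 100%, just above 90%, near the middle of the scale and at 0. From 95 to under 100% lay only 0.572% of the values. Which levels can occur just under 100% depends on the reads per value, which are unknown, so the peak above 90% cannot be read as a separate level.

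**Figure D1:**
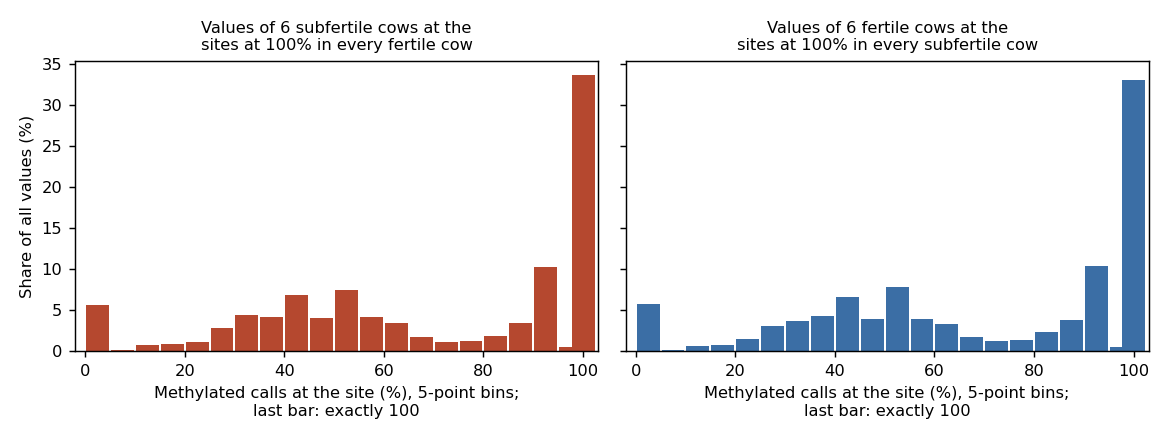
Share of all values by methylation level in 5-point bins, with the last bar for exactly 100%: left, subfertile cows at the 1131 sites at 100% in every fertile cow; right, fertile cows at the 1392 sites at 100% in every subfertile cow. Both show peaks at 100% (33.7% and 33.1% of values), from 90 to under 95% (10.3% and 10.4%), around the middle of the scale and at 0. The place of the peak above 90% depends on read depth, which is unknown.

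The number of low cows differed between sites and was most often 3 of the 6. Taking a level under 75% as low, 2 subfertile cows were low at 353 sites (31.2%), 3 at 544 (48.1%) and 4 at 177 (15.6%). It was 5 at 34 sites and all 6 at 3 sites, and a single cow was low at 20. Conversely, 1 to 3 subfertile cows were themselves at 100% at most sites: 1 at 279, 2 at 443 and 3 at 288. No subfertile cow reached 100% at 70 sites (6.19%), so there the groups did not overlap. With any 1 subfertile cow left out this share, which can then only stay or rise, was 9.28 to 11.2%. At 1.24% of the sites every subfertile value was under 90%. Over all autosomal deposited sites, 1.16% had non-overlapping groups with the subfertile cows lower. Since the rule used this contrast, nothing is read from that comparison. At least 1 subfertile cow was under 10% at 361 sites (31.9%), and 2 cows were at 28, with no site holding more.

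The low cows were not the same from site to site. Subfertile cow 1 was low at 57.8% of the sites where it had a value, cow 6 at 51.8%, and cow 5 at 41.5%. Cow 2 was low at 48.2%, cow 4 at 48.0% and cow 3 at 46.7%. Each cow was thus low at a large share of the sites and none was low at all of them. Among 984 sites with a value in all 6 subfertile cows, 60 different sets of low cows occurred. The commonest sets were cows 1, 2 and 5 (49 sites), cows 1, 3 and 4 (48) and cows 1, 3 and 6 (48), each under 5% of the sites. Missing values were few, from 0.973% of the sites in subfertile cow 6 to 4.86% in subfertile cow 3, which also had the most missing values at the other autosomal sites (4.87%).

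**Figure D2:**
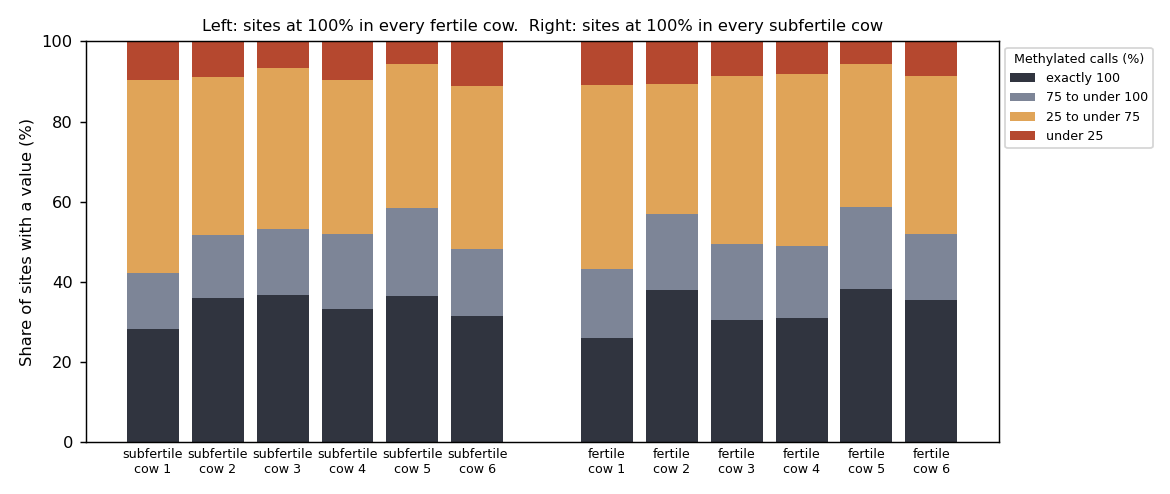
Share of sites in 4 classes of methylation level for each cow: the 6 subfertile cows at the sites at 100% in every fertile cow, and to their right the 6 fertile cows at the sites at 100% in every subfertile cow. Every subfertile cow holds all 4 classes, with 28.3% to 36.6% of its sites at exactly 100%.

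The same rule turned round, autosomal sites at 100% in every subfertile cow, found 1392 sites and gave close to the same picture. Subfertile cows averaged 68.6 ± 3.42% at the 1131 sites and fertile cows 68.7 ± 3.45% at the 1392 sites (SD over 6 cows each). The authors' limit on the difference bounds both means in the same way. Of the fertile values at the 1392 sites, 33.1% were at 100%, 22.4% from 40 to under 60% and 5.76% at 0. At least 1 subfertile cow was under 10% at 31.9% of the 1131 sites (95% exact binomial interval 29.2 to 34.7%), and at least 1 fertile cow at 457 of the 1392 sites (32.8%, 30.4 to 35.4%). The intervals cover counting error only, and neighbouring sites are not independent. Among the 101232 other autosomal sites lower in subfertile cows, 81.8% had a subfertile cow under 10% and 37.1% of the subfertile values were at 0. Many of these sites were lower in fertile cows too. Their fertile mean was 60 to under 80% at 30294 and 40 to under 60% at 20437, so these shares are not a like comparison. The spread seen in subfertile cows was thus also present in fertile cows when the rule was turned, and no test of a difference was made.

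Sites near each other had the same low cows. Every pair of the 1131 sites was compared by distance, counting a pair as alike when the same subfertile cows were under 75% at both. Of 67 pairs from 2 bp to 1 kb apart, 83.6% were alike. The share was 77.2% of 202 pairs over 1 to 10 kb apart and 63.5% of 548 pairs over 10 to 100 kb apart. It was 38.0% of 1675 pairs over 100 kb to 1 Mb apart and 14.1% of 7168 pairs over 1 to 10 Mb apart. Sites on different chromosomes were alike in 2.60% of 611448 pairs. The difference between paired sites was averaged over cows, and its median over pairs grew in the same order. It was 7.90, 10.1, 11.3, 16.7 and 27.1 percentage points, against 34.6 points between chromosomes.

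At this limit the share of alike pairs was thus lower at each longer distance. Pairs share cows, and 1 dense region gives many pairs. Counting only the nearest other site of each site, 66.9% of 293 were alike at over 10 to 100 kb, in 131 windows of 1 Mb. The limit of 75% was chosen after the values were seen and lies between the modes. With a limit of 90%, 68.7% were alike from 2 bp to 1 kb, 61.4% over 1 to 10 kb, 54.4% over 10 to 100 kb and 2.48% between chromosomes. With a limit of 50%, inside the middle mode, the share did not follow distance in the same way, at 11.1% for the 45 pairs 1 bp apart, 34.3% from 2 bp to 1 kb, 15.8% over 1 to 10 kb, 17.5% over 10 to 100 kb and 4.05% between chromosomes. With that limit the shares for the nearest other site lay between 15.9% and 19.5% from 2 bp up to 10 Mb. The decline with distance in shares of alike pairs thus depends on the limit, whereas the median differences use none. In fertile cows at the 1392 sites, 70.9% of 1022 pairs over 10 to 100 kb apart were alike and 2.47% of pairs between chromosomes.

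**Figure D3:**
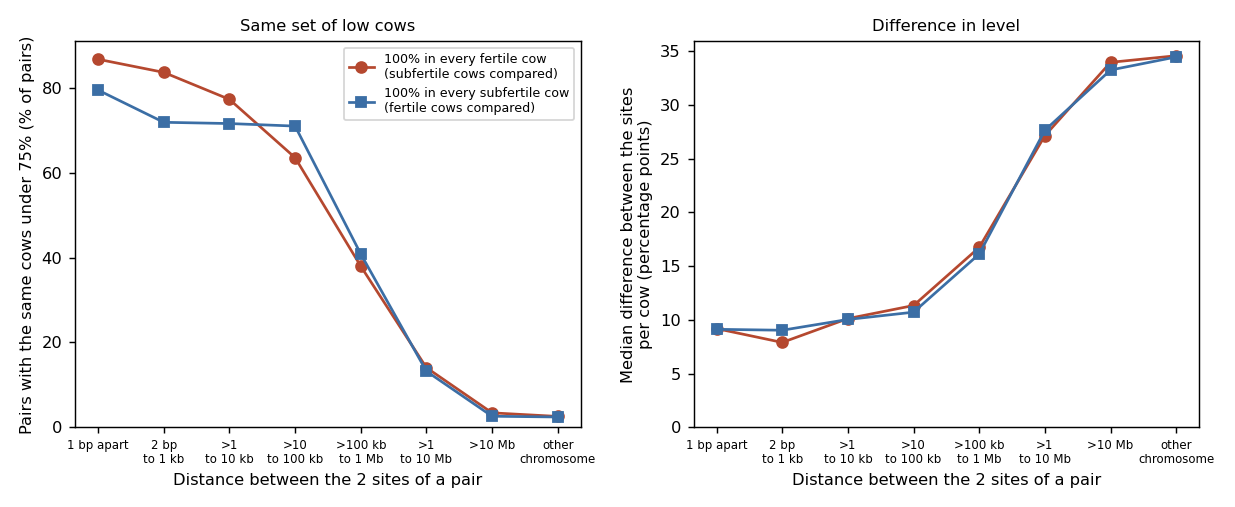
Pairs of sites by distance, from 1 bp apart to different chromosomes. Left: the share of pairs with the same cows under 75%. Right: the difference between both sites averaged over cows, as the median over pairs. Circles are subfertile cows at the 1131 sites and squares fertile cows at the 1392 sites; the share for the circles is 83.6% at 2 bp to 1 kb and 2.60% between chromosomes.

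The sites were spread over all autosomes, with groups in places. Counting sites within 1 kb once, there were 1041 clusters, of which 969 held 1 site, 58 held 2 and 14 held 3 or more. They fell in 501 of the 2491 windows of 1 Mb that held any deposited autosomal site. In 51 windows there were 5 or more, together 370 sites (32.7%). As a share of each chromosome's deposited sites, they were most frequent on chromosome 25 (0.964%), 29 (0.872%) and 19 (0.832%) and least on chromosome 13 (0.214%) and 6 (0.228%). Among 1027 further deposited sites within 1 kb of them, opposite strands left out, 802 (78.1%) were also lower in subfertile cows, against 47.9% of all autosomal deposited sites. Those 802 averaged 55.7 ± 4.06% in subfertile and 90.02 ± 1.196% in fertile cows (SD, n = 6 each). They were taken for being lower in subfertile cows among sites selected on the group difference, so this gap is not a separate result.

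The annotation class with the most sites was the intron. Introns held 596 of them (52.7%, exact binomial 95% interval 49.7 to 55.6%), against 35.5% of the other autosomal sites. Distal intergenic DNA held 401 (35.5%, against 57.3%), promoters 83 (7.34%, against 5.54%) and exons 38 (3.36%, against 1.08%). In 3′ untranslated regions lay 9 (0.796%, against 0.432%) and downstream of genes 4 (0.354%, against 0.0964%). In 5′ untranslated regions there were 0 of 1131, with an exact upper bound of 0.326%, against 20 of the 212702 other autosomal sites (0.0094%). The sites at 100% in every subfertile cow had nearly the same shares, 51.4% in introns and 34.9% in distal intergenic DNA.

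The intron share also varied with the fertile level among sites outside the rule. It was 43.7% where the fertile mean lay from 95 to under 100%, 38.6% from 90 to under 95%, and 34.0% from 40 to under 60%, all among sites lower in subfertile cows. Of the intron sites, 114 of 596 (19.1%) were in a gene's first intron, against 25.2% of other autosomal intron sites and 19.2% of intron sites at 100% in every subfertile cow. The median distance to the nearest transcription start was 23183 bp, against 43922 bp for the other autosomal sites and 24932 bp for the sites at 100% in every subfertile cow. No test over sites was made, since neighbouring sites share cows and position. Without the 51 windows that held 5 or more sites, the intron share was 48.2% of 761 sites. Subfertile levels hardly differed by feature, at 68.9 ± 3.81% in introns, 68.4 ± 3.43% in intergenic DNA, 67.6 ± 5.80% in promoters and 68.1 ± 6.77% in exons (SD over 6 cows). The rule and the authors' limit on the difference bound these means in the same way in every feature, so nothing is read from their likeness.

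**Figure D4:**
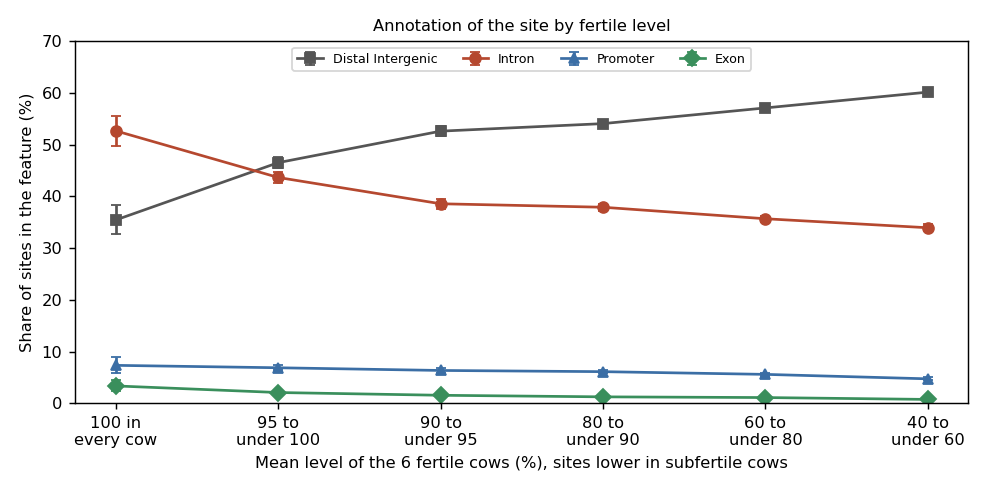
Share of sites in 4 annotation classes by fertile level, for sites lower in subfertile cows, with exact binomial 95% intervals for counting error only. The leftmost points are the 1131 sites at 100% in every fertile cow, with 52.7% in introns; the intron share is 34.0% where the fertile mean is 40 to under 60%.

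In gene features there were 730 of the sites, 645 of them assigned to 415 genes with a symbol. Most of these genes, 302, held a single site, 59 held 2 and 54 held 3 or more. In the 10 genes with the most sites, the low cows were mostly shared along the gene. Positions below are in the build ARS-UCD1.2.

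KDM4C, a histone lysine demethylase gene, held 10 sites along 131914 bp of chromosome 8, from 37777081 to 37908994, 9 of them intronic and 1 exonic. Means over these sites were 50.5, 45.9, 38.2, 98.5, 95.7 and 98.7% in subfertile cows 1 to 6. At all 10 sites cows 1, 2 and 3 were under 75%, and no value of the other subfertile cows was under 88.9%. The 26 deposited sites in this span were all lower in subfertile cows.

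MRPS5, which encodes a protein of the mitochondrial ribosome, held 9 intron sites on chromosome 11 from 1927912 to 1940607. Subfertile cows 1 to 6 averaged 35.7, 98.2, 91.8, 50.3, 99.1 and 41.7%. Here cows 1, 4 and 6 formed the low set at 7 of the 9 sites, a different set from that of KDM4C. FBXL17, an F-box substrate receptor of a ubiquitin ligase, also held 9 intron sites, and cows 4 and 6 were low at all of them (means of 36.2 and 47.1%), while cow 2 averaged 97.2%. Of the 297 deposited sites in that span of FBXL17, only 75 were lower in subfertile cows.

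DIP2A, on chromosome 1 from 146145369 to 146195487, held 7 intron sites at which subfertile cow 4 was at 0 without exception. Cow 3 averaged 48.9% there and cows 1, 2, 5 and 6 averaged 89.3, 98.98, 97.5 and 92.5%. SLC22A20P, a gene of the organic anion transporter family that is a pseudogene in human, held 6 sites on chromosome 29 from 43430618 to 43442547. At all 6 sites subfertile cow 2 was at 0. Cows 5 and 6 averaged 54.1 and 52.8%, and cows 1, 3 and 4 averaged 95.6, 94.8 and 95.4%. In both genes 1 cow was at 0, 1 or 2 cows lay near the middle, and the others were high.

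AQR, a helicase gene of the spliceosome, showed another arrangement, with 6 intron sites on chromosome 10 from 30378569 to 30395532. Cows 1, 2, 3, 4 and 6 averaged 53.4, 59.8, 52.6, 43.6 and 50.4%, and cow 5 was at 100% wherever it had a value. Over the 6 sites the subfertile mean was 59.9 ± 20.3% (SD, n = 6 cows).

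SH3BP5, whose product activates a GTPase of recycling endosomes, held the largest cluster, 6 exon sites within 59 bp on chromosome 1 from 152289862 to 152289920. Subfertile cows 1 to 6 averaged 79.9, 29.6, 79.3, 89.3, 64.5 and 84.6%. These values lay less at separate levels than in most of the other genes, and the highest average was 89.3%. CAPN7, a calpain protease gene nearby on the same chromosome, held 6 sites at 33.8, 97.3, 52.9, 99.2, 100 and 46.6%. Its low cows 1, 3 and 6 were not those of SH3BP5, where cows 2 and 5 were low, so neighbouring genes could have different low sets.

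RSBN1L held 5 intron sites on chromosome 4 from 43484335 to 43517551, with subfertile cows 1 and 4 at 0 at every one of them. Its cows 2 and 5 averaged 50.5 and 43.3%, and cows 3 and 6 averaged 98.0 and 97.6%. FRMD8, which encodes a partner of the rhomboid-like proteins that control shedding of surface proteins, held 5 sites on chromosome 29 from 43583528 to 43588241. Cows 1 and 2 were at 0 there, with no value for cow 1 at 1 of the 5 sites, cows 3 and 5 averaged 45.0 and 44.7%, and cows 4 and 6 averaged 97.1 and 100%. These genes had the lowest subfertile means among the 10, 48.2 ± 43.8% and 47.8 ± 44.1% (SD, n = 6 cows), each with cows at 3 levels.

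**Figure D5:**
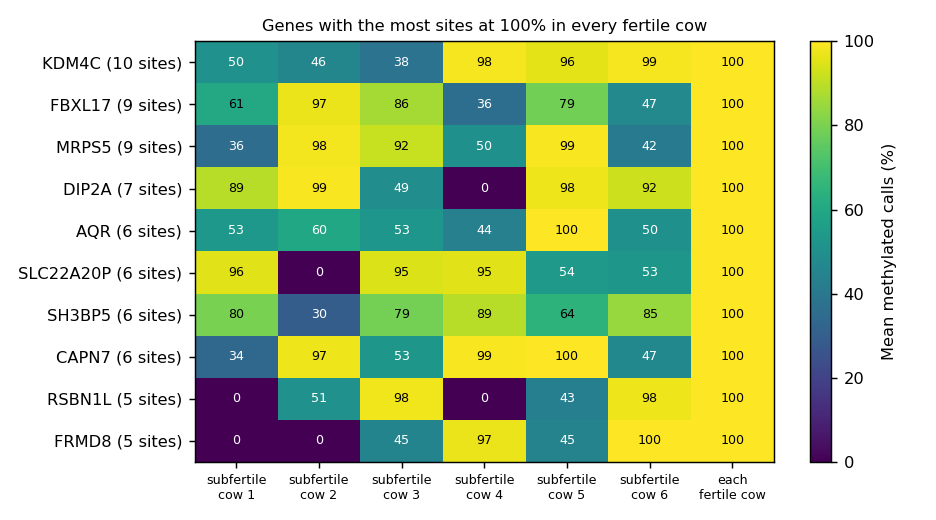
Mean methylation level (%) per cow over the sites of the 10 genes with the most sites at 100% in every fertile cow; rows are genes, columns the 6 subfertile cows and, rightmost, each fertile cow, at 100 by the rule. In every gene at least 1 subfertile cow averages under 50% and, except in SH3BP5, at least 1 averages over 95%.

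Other clusters repeated these patterns. NGLY1, which encodes the cytosolic enzyme that removes N-linked sugars from proteins, held 4 intron sites on chromosome 27 from 40073556 to 40074715. Its subfertile cows 2, 3 and 4 averaged 47.5, 44.9 and 45.0%, and cows 1, 5 and 6 averaged 95.6, 100 and 98.8%. The 4 deposited sites of that span all belonged to the set. An intergenic cluster with no gene symbol on chromosome 16, from 34098128 to 34098131, held 3 sites with cow 4 at 0 and cows 1 and 3 at 63.0 and 30.3%.

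The single sites with the lowest subfertile means lay mostly outside genes. All had more than 2 low cows, which means this low almost require. The lowest, on chromosome 29 at 42181565, lay 14833 bp from the start of its nearest gene SPINDOC, whose product binds the histone reader spindlin. Its subfertile values were 57.1, 0, 50, 50, 46.2 and 28.6%, so that all 6 cows were far below the fertile cows. The site nearest to LOC528282 (chromosome 19, 6392128) had 60, 33.3, 0, 61.5, 61.1 and 30%, again with no overlap between groups. A site 53188 bp upstream of ITGA4, an integrin subunit by which leukocytes adhere and leave vessels, had 0, 41.2, 69.2, 36.4 and 62.5% in 5 subfertile cows, with no value in cow 3.

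A site on chromosome 21 at 34304723, nearest to CYP11A1, the enzyme of the first step of steroid hormone synthesis, had 14.3, 100, 54.5, 41.7, 23.1 and 18.8%. It lay 23680 bp upstream of that gene's start. On the same chromosome a site 23333 bp upstream of the start of CLK3, a kinase of splicing factors, had 40, 88.9, 44.4, 30, 33.3 and 25%. It was classed as 3′ untranslated, and CLK3 is only its nearest gene by start. At both sites subfertile cow 2 alone stayed high. An intron site of GPC6, sites nearest to SLC20A1 and TMEM130, and intron sites of RSBN1L and FRMD8 completed the 10 lowest, with means from 44.5 to 46.4%.

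Promoter sites, within 3 kb of a start in the authors' annotation, numbered 83, of which 24 lay within 1 kb. The lowest with a symbol lay 2361 bp upstream of LRFN4, a synaptic adhesion gene, with 31.3, 18.2, 36.4, 100, 58.8 and 44.4% in subfertile cows 1 to 6. ALOX5AP, needed for leukotriene synthesis in white blood cells, had 0, 100, 53.8, 58.3 and 30% in subfertile cows 2 to 6, with no value in cow 1. FOXP1, a transcription factor of lymphocyte development, had 38.5, 90.9, 60, 45.5, 41.2 and 33.3%. In LRFN4 and ALOX5AP 1 subfertile cow was at 100%, whereas at FOXP1 the groups did not overlap.

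PCOLCE, an enhancer of procollagen processing, had 46.7, 0, 91.7, 100, 45.5 and 44.4% at its promoter site. RMDN3, which tethers mitochondria to the endoplasmic reticulum, had 45, 31.8, 0, 92.9, 69.2 and 100%. PC, which encodes pyruvate carboxylase, had 60, 42.9, 53.8, 100, 45.5 and 53.8% at a site 691 bp upstream of its start. At each of these promoter sites 1 subfertile cow was at 100%, so the groups overlapped. FRMD8, CLK3 and LOC112444390 were also among the 10 lowest promoter sites, with means of 57.7, 58.0 and 58.3%.

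Of the exon sites, 38 in all, the lowest lay in PRR15L (33.3, 42.9, 90.9, 31.3, 75 and 22.2%). SSH3, a phosphatase gene that activates the actin-severing protein cofilin, had 44.4, 44.4, 36.4, 91.7, 61.5 and 42.9% at exon 11 of 14. At both sites every subfertile cow was below every fertile cow. SEC61A1, the pore of the endoplasmic reticulum translocon, had 14.3, 56.3, 40, 100, 100 and 42.9% at exon 10 of 12. CDC42BPG, IGSF3, CROCC, ADGRG7, DTX2, SLC22A20P and ATP9A completed the 10, with subfertile means from 58.8 to 64.6%.

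The 6 windows of 1 Mb with the most sites, chosen after their values were seen, held partly shared and partly mixed low sets. On chromosome 28 from 25 to 26 Mb, 15 sites lay around DDX50, HKDC1, KIFBP and STOX1, and subfertile cows 1 and 6 were low at all 15, while cows 2 and 4 were low at none. The commonest low set, cows 1, 3 and 6, was met at 7 of these sites. On chromosome 29 from 43 to 44 Mb, 15 sites included those of FRMD8 and SLC22A20P, and subfertile cow 2 was at 0 at every one of them, whereas cow 4 averaged 96.4%. The low sets as a whole were mixed there, with 6 different ones and the commonest at 6 of the 15 sites. On chromosome 1 from 152 to 153 Mb, 14 sites around CAPN7 and SH3BP5 had 5 different low sets, the commonest at 5 sites. On chromosome 10 from 36 to 37 Mb, 13 sites had 3 low sets, and cows 1 and 3 were low at all 13 while cows 4 and 6 were low at none. On chromosome 11 from 102025507 to 102704818, 12 sites had 5 low sets, and no cow was low at all 12. On chromosome 11 from 104004617 to 104545002, 11 sites lay around ABO, DBH, NOTCH1 and SARDH. There cows 2 and 6 were low at all 11, with means of 45.0 and 2.27%, and cows 1 and 3 averaged 98.3 and 99.2%. The commonest of the 3 low sets was met at 7 of the 11. On chromosome 29 the sites with cow 2 at 0 spanned 765667 bp, and in the last window of chromosome 11 those with cow 6 low spanned 540386 bp.

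The share of sites in the listed genes of blood cells, immunity and reproduction was close to that in all genes. The 16 lists hold 296 genes, of which 126 had a deposited site in a gene feature. Of the 1181 sites in these genes, 9 (0.762%) were at 100% in every fertile cow, against 0.791% of all 81574 gene-feature sites with a symbol. They fell in 6 genes of 4 lists, and the other 12 lists had 0. Among those without any were the lists for B cells (200 sites), neutrophils (49), natural killer cells (33), T cells (32), erythroid cells (25), monocytes (15) and eosinophils with basophils (6). The lists of cytokines, chemokines and receptors, steroid and gonadotropin genes, endometrium and pregnancy genes, insulin and growth hormone genes and DNA methylation machinery also had none. For B cell genes, 0 of 200 allows a share of up to 1.5%, and the shorter lists allow more.

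KCNQ1, a potassium channel gene that lies in an imprinted domain in mouse and human, held 4 intron sites on chromosome 29 between 48761399 and 49056976. Subfertile cow 2 was at 0 at all 4 and cow 5 averaged 34.6%, while cows 1, 3, 4 and 6 averaged 98.2, 97.2, 98.7 and 94.7%. The low set of cows 2 and 5 was the same over 295578 bp. The platelet and coagulation list had 3 sites among 191. F5, coagulation factor V, had 46.2, 100, 33.3, 0, 90 and 100% at a promoter site, F13A1 91.7, 30, 91.7, 57.1, 55 and 100% in an intron, and VWF 55.6, 61.5, 72.7, 100 and 87.5% in an intron, with no value in cow 3.

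CD86, a costimulatory molecule of antigen-presenting cells, had 100, 100, 45.5, 45.5, 100 and 28.6% at 1 site in its first intron. RELA, a subunit of NF-kappaB, had 100, 0, 100, 100, 71.4 and 90.9% at 1 intron site of chromosome 29. That site lies in the window in which cow 2 was at 0 throughout. In all 6 list genes, at least 1 subfertile cow was at 100% at the site with the lowest mean, so the groups overlapped there.

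Just outside the rule were 3991 autosomal sites with 5 fertile cows at 100% and the remaining one below. That cow's value had a median of 88.2% and reached at most 96.7%. The nearest such sites were in introns of VPS39 (subfertile mean 65.4%), SLC25A24 (67.2%) and UHRF2 (70.5%), in the promoter of PEX19 (72.5%) and nearest to MIR2284Y-5 (68.0%). Their subfertile means lay within the range of the sites inside the rule. Each fertile cow was the one below at 624 to 736 of them.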

How the data were processed

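Blood DNA of 12 cows was enzymatically converted and sequenced from 1 mL of blood per cow, per the labels' protocols. Per the submitters' processing notes, ChIPseeker 1.32.1, Bismark, DRAGEN and fastp 0.23.1 were used with the assembly ARS-UCD1.2. The deposited table gives a percent methylated per cytosine and cow, per the file headers, without read counts. The authors' p-value, q-value and difference (a score in percentage points) were used only as description. The authors' test is not named in the sources used here, and no label or header states a read minimum. Annotation and gene symbols are the deposited ones. Intron and exon sites were given to the gene that holds them, which differed from the nearest gene at 217 of 634 sites (34.2%). Sites of all other classes were given to the nearest gene.

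Groups came from the labels, and column numbers matched the cows' titles. The sites and gene lists were chosen with earlier results of these data known. Because the rule and the authors' selection used the group contrast, no test was made. Shares have exact binomial 95% intervals. Clusters join sites within 1 kb. Pairs of sites were compared over cows with a value at both. The routines for pairs and clusters were checked on simulated data. Python 3.11.15, pandas 2.3.3, numpy 2.4.6 and scipy 1.17.1 were used. Named sites follow a fixed rule: the 10 lowest subfertile means with a symbol among all sites, in promoters and in exons (1 per gene), the 10 genes and 5 clusters with the most sites (ties by lower mean), list genes, and the nearest sites outside the rule. Of the 5 clusters, those in FRMD8 and AQR are covered under their genes. Sequence context was not analysed here. Of the 10 promoter sites, 1 is not reported here.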

Additional observations from a re-analysis of the deposited data

Results flagged for a closer look

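Over 64 sets of cow values examined for 1 cow standing apart, 5 were found. A chance rate of about 1 in 20 was assumed. It was not checked on these values, which gather at separate levels, so nothing is read from the count. At the 3′ untranslated site 23333 bp upstream of its nearest gene CLK3, subfertile cow 2 had 88.9%, with the others from 25 to 44.4%. At the CLK3 promoter site the same cow had 100%, with the others from 41.7 to 61.5%. At the PC promoter site subfertile cow 4 had 100%, with the others from 42.9 to 60%. At the RELA intron site subfertile cow 2 was at 0, with the others from 71.4 to 100%. Over the AQR sites subfertile cow 5 averaged 100%, with the others from 43.6 to 59.8%.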

How the results depend on the processing

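Of the settings tried, a minimum deposited difference of 40 points changed most: it left 161 of 1131 sites, with a subfertile mean of 56.0%, against 68.6%, as a stricter difference must lower it. Using 5 fertile cows in the rule gave 1790 to 1919 sites, since fewer cows had to be at 100%. Requiring at least 95% gave 1269 sites and at least 99% the same 1131. Leaving out 1 subfertile cow gave a mean of 67.5 to 69.5%, a share without overlap of 9.28 to 11.2% (6.19% with all 6) and a share with a cow under 10% of 24.4 to 29.6% (31.9% with all 6). With fewer cows the share without overlap can only stay or rise, and the share with a cow under 10% can only stay or fall. Counting overlap only from 90% upwards gave 1.24%, and a limit of 20% instead of 10% gave 40.2%. The promoter share was 7.17 to 7.40% under both alternatives. The following were chosen after seeing the data. The intron share was 50.1 to 52.8% with 5 fertile cows in the rule and 48.2% without the windows with 5 or more sites. The share of alike pairs over 10 to 100 kb apart was 65.0 to 71.4% with 1 subfertile cow left out (71.4% without cow 5), against 63.5% with all 6. Fewer cows then have to match, so the share can only stay or rise. It was 17.5% with a limit of 50% and 54.4% with 90%, and the cause was not tested. The sequence window comparison was not run. No paired analysis was possible because the groups hold different cows, nothing in the labels ties a cow of one group to a cow of the other, and the numbers only name cows. Depth per value is unknown, which limits how exactly 100% or 0 can be read, and the number of cows limits every comparison between groups.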

Other observations

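Off the autosomes, 9 of 3157 deposited sites were at 100% in every fertile cow, all on chromosome X, with a mean of 65.5 ± 10.7% in subfertile cows (SD, n = 6). Both a site at 100% in every fertile cow and one at 100% in every subfertile cow were found in 46 genes, which are 11.1% of the 415 genes with the first kind and 8.91% of the 516 genes with the second.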
